A study of Mus musculus with 18 samples.

Results

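The genes of 10 transcription factors that act in fat cell formation and lie outside the nuclear receptor family were followed across 3 mouse fat depots. They are Cebpa, Cebpb, Cebpd, Cebpg, Ddit3, Klf4, Klf5, Klf15, Ebf1 and Zfp423, and they were taken by name, with earlier results of these data known. Each was found by its symbol in every deposited table, as 10 of the 45141 symbols that had both a merged gene row and a transcript row on 1 chromosome. The 18 RNA-seq libraries came from male wild type mice (strain C57BL/6, named C57BL/6J in the protocol) that were 16 weeks old and ate regular chow. The 6 iWAT (inguinal white fat) and 6 eWAT (epididymal white fat) libraries were made from mature adipocytes that had been released with collagenase and had floated to the top. The 6 BAT (brown fat) libraries were made from whole tissue frozen in liquid nitrogen. A BAT library thus holds RNA of every cell of the tissue, and where it is compared with adipocytes, the depot cannot be told apart from the way the sample was prepared. In such bulk samples, fewer cells of a type and less RNA per cell cannot be told apart either. The labels do not state that each library is a separate mouse, so the p-values measure the spread between these samples, which may be technical in part. Samples are named below by depot and by the number in their title. Some numbers recur across depots (7, 11 and 13 in all 3), and the labels do not say whether they stand for the same mouse.

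Values are given as RPKM, the reads of a row scaled to its length and to the reads of the sample, as the authors deposited them. The reads behind the RPKM were between 22929576 and 34512470 per sample. A row is a gene with merged exons in the iWAT and BAT tables but a transcript in the eWAT tables, so counting and depot cannot be told apart for eWAT. Of the 10 genes, only Cebpa and Cebpb had the same row in all tables. The adiponectin gene Adipoq averaged 302 ± 47.7 RPKM in BAT against 1854 ± 237 in iWAT and 1789 ± 508 in eWAT (SD, n = 6 each). Ucp1, the gene of the brown fat uncoupling protein, averaged 1219 in BAT against 2.82 and 0.325. Both followed the labels. Markers of other cells varied within depots. The summed RPKM of 6 macrophage markers was 1952 in eWAT sample 15 and 136 to 463 in the other eWAT samples, and that of 5 skeletal muscle markers was 1340 in BAT sample 12 and 0.550 to 119 in the other BAT samples. Over the same 6 samples per depot, 7 endothelial markers summed to 56.9 to 320 in iWAT, 146 to 337 in eWAT and 55.5 to 129 in BAT, and 8 stromal progenitor markers to 95.9 to 173, 105 to 220 and 57.1 to 84.8. Such sums weigh strongly expressed genes most. By edgeR, 4 of the 8 stromal markers were lower and 2 higher in iWAT than in BAT (median log2 fold change -0.86). Of the 7 endothelial markers, 3 were lower and 1 higher (median -0.61). Of all rows tested, 33.6% were lower and 34.0% higher. No marker of these 4 lists was at 0 reads throughout a depot. The 5 B cell and 5 T cell markers summed to at most 1.98 in any sample. The 5 epididymis markers summed to 76.1 in eWAT sample 14 and 70.9 in eWAT sample 15, and to at most 3.64 in any other sample of the 3 depots.

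As background, the CCAAT/enhancer-binding proteins (C/EBPs) bind DNA as pairs through a leucine zipper. C/EBPβ and C/EBPδ are switched on early when a precursor cell is exposed to cAMP or glucocorticoids, and they induce C/EBPα and PPARγ, which keep up the genes of the mature adipocyte. C/EBPγ and CHOP, the product of Ddit3, pair with the others and lack their power to activate. The Krüppel-like factors (KLFs) bind GC-rich boxes, and KLF4, KLF5 and KLF15 act at successive stages of the same cascade. EBF1 and ZFP423 are zinc-binding factors of precursor commitment that adipocytes keep expressing.

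Between iWAT adipocytes and BAT tissue, Cebpd, Klf4, Zfp423, Ebf1, Klf15 and Cebpa were higher in iWAT and Cebpb was higher in BAT. Thus 7 of the 9 genes tested passed the threshold (6 higher and 1 lower in iWAT, edgeR's quasi-likelihood test with Benjamini-Hochberg adjustment over all rows tested), where 67.6% of the 19733 rows tested did (34.0% higher and 33.6% lower), so the count by itself did not set these genes apart. Cebpg and Ddit3 did not pass, and Klf5 had too few reads to be tested. Between eWAT and BAT, 8 of the 9 genes passed (5 higher and 3 lower in eWAT) where 70.3% of the 18378 genes tested did (35.6% higher and 34.7% lower). Of the 3 lower, Cebpb alone stayed lower in every alternative run, since Ddit3 was higher with row length in the fit (1.18) and Cebpg was higher on RPKM (0.18). Between eWAT and iWAT, 4 of the 9 (Cebpa, Cebpd, Cebpg and Ddit3) passed with lower counts in eWAT, where 25.6% of the same 18378 did (12.3% higher and 13.4% lower). With row length in the fit Ddit3 was higher in eWAT (0.97), and on RPKM Cebpd differed by 0.092. The median log2 fold change of the 9 genes was 1.28 for iWAT against BAT, 0.90 for eWAT against BAT and -0.38 for eWAT against iWAT, and that of all genes tested was 0.01, 0.03 and -0.003. Both eWAT medians are the value of Ebf1, and with row length in the fit they were 1.18 and -0.52, against 0.08 and -0.04 over all genes. The fit with row length also computed the scaling between samples anew, on reads per base, so these medians hold a change of scale as well. The comparisons share samples, so their calls do not count as separate evidence. Fold changes are on counts scaled by TMM (trimmed mean of M values). Without this scaling, the median of all genes was 0.27 for iWAT against BAT and 0.36 for eWAT against BAT.

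**Figure D1:**
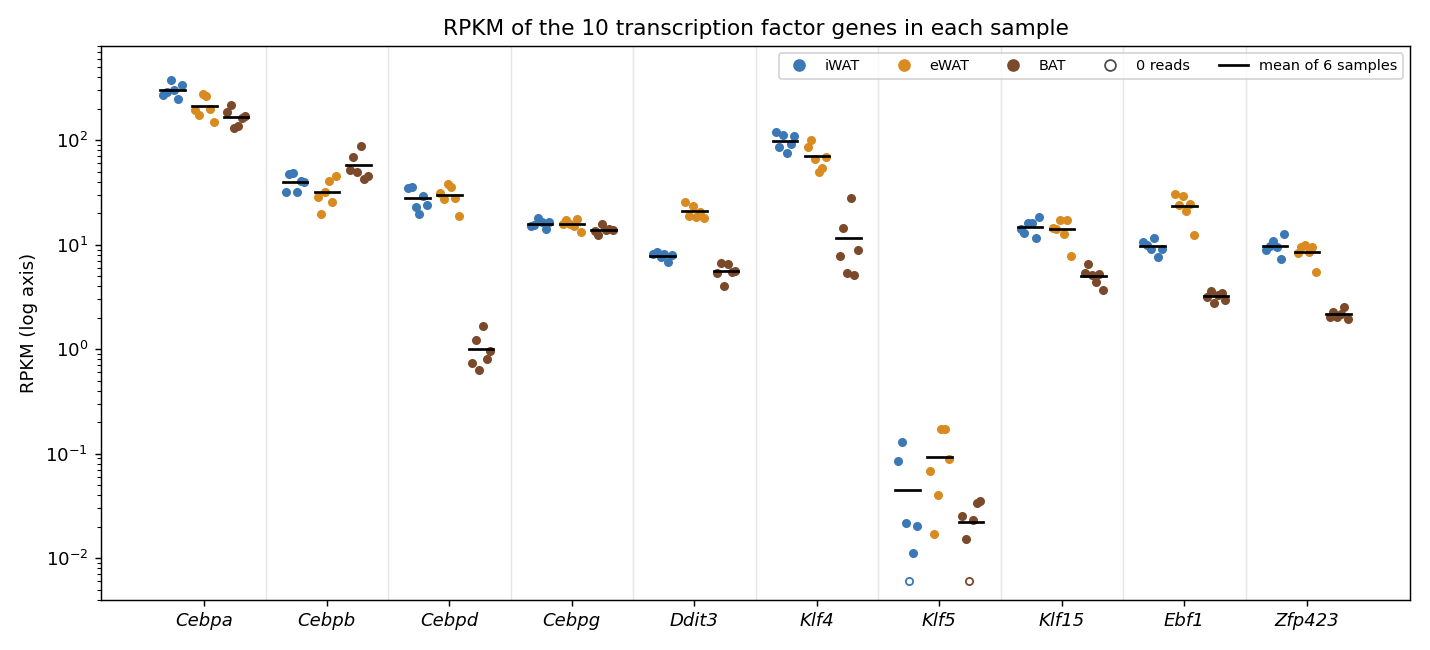
RPKM of the 10 genes (log axis) in each of the 18 samples, with a bar at the mean of the 6 samples of a depot and open circles for 0 reads. Cebpd stood at 0.630 to 1.67 in BAT and at 18.6 to 38.0 in the adipocyte samples, Cebpa was the highest of the 10 genes in every depot, and Klf5 was the lowest.

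**Figure D2:**
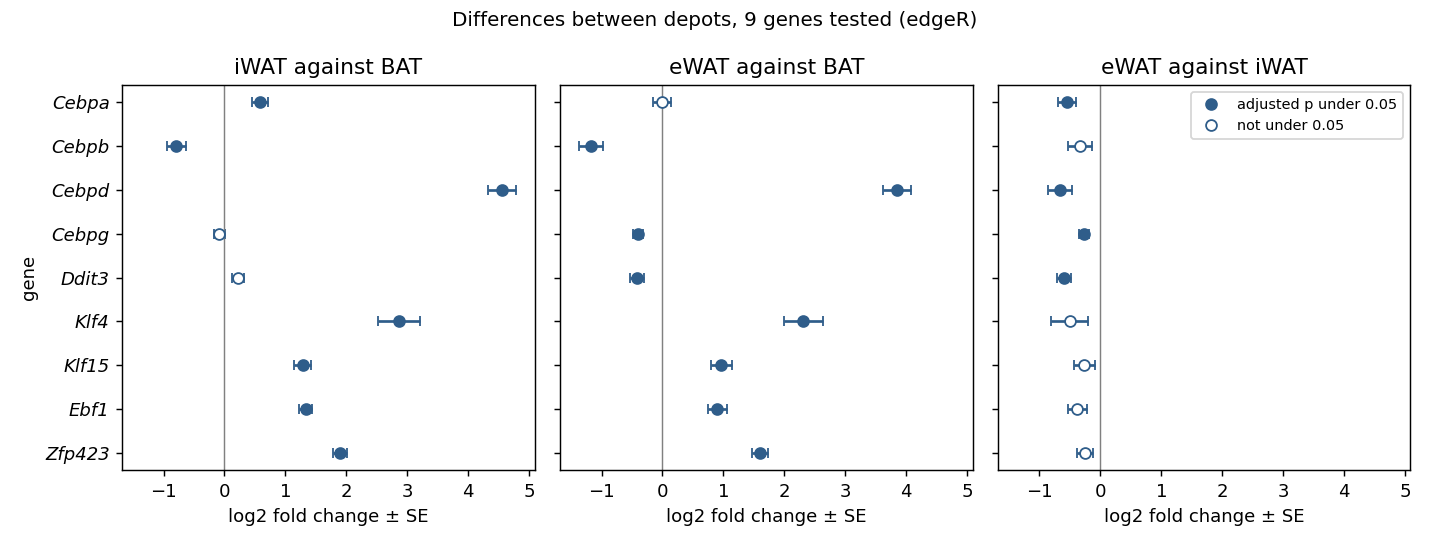
Log2 fold change with its standard error for the 9 genes tested, for iWAT against BAT, eWAT against BAT and eWAT against iWAT, with filled points for an adjusted p under 0.05. Cebpd lay furthest from 0 in both comparisons with BAT, at 4.55 and 3.85.

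The promoters of 3 genes are printed because they hold a half-site of the cAMP response element, the DNA contact of CREB. CREB is activated by Gs signaling through cAMP, the signal that the study is about. RefSeq (GRCm38.p6) gives 10 promoter windows for 8 of the 10 genes, and the 250 bases before each start were searched on both strands. The half-site TGACG was found in Cebpb (3 matches), Klf15 (2 matches) and Klf4 (1 match), and 17.8% of all 32851 windows of this length hold it. The KLF-type GC box GGGNGNGGG, which 25.6% of the windows hold, had 5 matches in Klf4, 3 each in Cebpb, Ddit3 and a window of Zfp423, and 1 each in Klf15 and both windows of Ebf1. The sequences read 5′ to 3′ with the half-site, or its reverse complement CGTCA, in capitals, from chr2:167688665-167688914 (plus strand), chr4:55532476-55532725 (minus strand) and chr6:90462326-90462575 (plus strand).
Cebpb: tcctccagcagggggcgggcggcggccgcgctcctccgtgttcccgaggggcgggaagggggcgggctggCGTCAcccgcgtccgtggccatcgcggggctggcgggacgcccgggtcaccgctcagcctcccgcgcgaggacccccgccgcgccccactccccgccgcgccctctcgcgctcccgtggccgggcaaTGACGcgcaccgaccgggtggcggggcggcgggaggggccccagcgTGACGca
Klf4: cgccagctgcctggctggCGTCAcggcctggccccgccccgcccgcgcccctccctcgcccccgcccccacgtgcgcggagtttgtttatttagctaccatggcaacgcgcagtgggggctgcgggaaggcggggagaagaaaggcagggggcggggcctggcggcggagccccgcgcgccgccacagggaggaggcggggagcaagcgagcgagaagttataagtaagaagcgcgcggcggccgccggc
Klf15: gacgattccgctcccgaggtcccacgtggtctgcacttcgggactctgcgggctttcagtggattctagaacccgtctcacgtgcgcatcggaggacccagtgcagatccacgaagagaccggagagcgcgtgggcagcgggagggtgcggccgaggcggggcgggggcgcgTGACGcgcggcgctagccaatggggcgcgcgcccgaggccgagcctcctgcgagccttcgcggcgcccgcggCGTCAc
The full element TGACGTCA, the palindromic C/EBP site TTGCGCAA and, outside Ddit3, the AP-1 site TGANTCA had no match in these windows. They are held by 1.55%, 0.164% and 6.75% of all windows. A match is a string of letters and was not measured as a bound site.

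Cebpa encodes the C/EBP of the mature adipocyte and had the highest RPKM of the 10 genes in all 3 depots. The gene is a single exon on the plus strand of chromosome 7 (chr7:35904312-35906947, mm9), and its row is the same in every table. In iWAT its RPKM had a lowest value of 249, a median of 295 and a highest value of 377. In eWAT these were 149, 197 and 280, and in BAT 132, 166 and 218. Every iWAT sample was above every BAT sample, whereas the eWAT samples overlapped with both. Cebpa was higher in iWAT than in BAT by 0.59 on the log2 scale (SE 0.13, edgeR adjusted p = 0.00123). For eWAT against BAT it was -0.01 (adjusted p = 0.956), and its sign turned in 16 of the 26 alternatives run. It was -0.40 with row length in the fit (adjusted p = 0.0297). The row of Cebpa has the same length in every table, so this change came from the scaling between samples, which that fit computed anew. With the eWAT transcript of highest RPKM, a 291-base row, Cebpa was at -2.52 (adjusted p = 3.82e-11). Between eWAT and iWAT it was -0.55 (adjusted p = 0.0131) and, in a fit of the 5733 rows shared by all tables, -0.58 (adjusted p = 0.0204). Without eWAT samples 14 and 15 that difference was -0.44 (adjusted p = 0.0697).

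Cebpb encodes the early C/EBP that cAMP induces, and it was the only one of the 9 genes that passed the threshold as lower than in BAT in both adipocyte preparations. That direction was kept in every alternative run. Its single exon lies on chromosome 2 (chr2:167514415-167515918, plus strand), again with the same row in every table, and its promoter is the first of those printed above. The lowest, median and highest RPKM were 42.9, 50.9 and 88.7 in BAT, against 31.8, 40.5 and 48.2 in iWAT and 19.8, 30.1 and 45.5 in eWAT. The ranges overlapped between all depots, with 4 of the 6 BAT samples (49.3 to 88.7) above every adipocyte sample. Between eWAT and BAT the overlap rests on eWAT sample 15 (45.5), since the next highest eWAT value was 40.6. Cebpb was at 0.579 of the BAT level in iWAT (log2 fold change -0.79, SE 0.16, edgeR adjusted p = 0.000484). In eWAT the log2 fold change against BAT was -1.17 (adjusted p = 3.41e-05), and -1.05 on the shared rows. The difference between eWAT and iWAT, -0.33, did not pass (adjusted p = 0.222). In the annotation 312 of the 1504 bases of Cebpb overlap an exon of Tmem189 on the opposite strand (167515011 to 167515322). The library kit and counting are not stated to keep strand, so reads of the 2 genes cannot be told apart there.

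Cebpd, the partner of Cebpb in the early wave and a gene that glucocorticoids and inflammatory signals induce, differed more between preparations than any other of the 9 genes tested. It lies on chromosome 16 (chr16:15887379-15891124, plus strand, 1 exon in the merged row). In BAT its RPKM was 0.630 at the lowest, 0.881 at the median and 1.67 at the highest, from 63 to 191 reads per sample. In iWAT the values were 19.9, 26.7 and 35.5. In eWAT, on the 2260-base transcript, they were 18.6, 29.4 and 38.0. All 12 adipocyte samples were therefore above all 6 BAT samples, and iWAT and eWAT overlapped. In iWAT Cebpd was 23.5-fold higher than in BAT (log2 fold change 4.55, SE 0.23, edgeR adjusted p = 8.57e-10), and over 23 alternatives the log2 fold change ran from 3.84 to 4.79. For eWAT against BAT it was 3.85 (adjusted p = 4.25e-11). Against iWAT the eWAT count was lower and passed the threshold (log2 fold change -0.66, adjusted p = 0.0220). The merged row holds 3746 bases, however, and with row length in the fit the value was -0.35 (adjusted p = 0.161). It also lost the threshold without iWAT sample 7 (adjusted p = 0.0553) or iWAT sample 11 (adjusted p = 0.0564). Within eWAT the reads lay mostly at the 5′ side of the gene, since 11252 of the 12473 reads on the 2260-base row were also on a row of its first 1181 bases. The mean RPKM was 51.5 on that shorter row and 13.8 on a 3211-base row that runs to the end of the merged row.

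Cebpg encodes a C/EBP without an activating domain that pairs with the other members and with ATF4. It was the most even of the 10 genes across depots, averaging 13.9 ± 1.09 RPKM in BAT against 15.9 ± 1.37 in iWAT and 15.8 ± 1.57 in eWAT (SD, n = 6 each). The ranges overlapped between all depots. Between iWAT and BAT the log2 fold change was -0.08 (edgeR adjusted p = 0.400), and it was 0.19 without TMM scaling (adjusted p = 0.0431). Between eWAT and BAT it was -0.40 (adjusted p = 0.000356) on counts but -0.06 without TMM scaling (adjusted p = 0.509) and 0.18 on RPKM (limma adjusted p = 0.0478), so no direction is drawn. The call between eWAT and iWAT (log2 fold change -0.26, adjusted p = 0.0260) was lost without iWAT sample 12 or 15 or eWAT sample 13 or 15, with adjusted p of 0.0508 to 0.0568.

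Ddit3 encodes CHOP, the C/EBP relative that the stress kinase pathway through ATF4 induces. Its RPKM was 6.78, 8.11 and 8.48 in iWAT (lowest, median and highest) and 4.05, 5.54 and 6.70 in BAT. The 2 ranges did not overlap, with every iWAT sample above every BAT sample. On scaled counts the difference was small and missed the threshold (log2 fold change 0.23, SE 0.10, edgeR adjusted p = 0.0502), and it passed in 8 of the 23 alternatives, among them leaving out BAT sample 7 (0.25, adjusted p = 0.0370), iWAT sample 12 (0.27, adjusted p = 0.0355) or iWAT sample 14 (0.28, adjusted p = 0.0208). The eWAT values of 18.1, 19.6 and 25.7 rest on an 871-base transcript, where the merged row of the other depots has 3455 bases (chr10:126727830-126733448, plus strand). The eWAT counts were lower than those of BAT (log2 fold change -0.42, adjusted p = 0.00262) and iWAT (-0.60, adjusted p = 0.000777), and with row length in the fit they were higher (1.18 and 0.97). No direction is drawn for Ddit3 in eWAT. An unnamed cDNA row on the opposite strand, AK136907 (126729544 to 126732858), covers much of the gene, and 68 bases of the last exon overlap Mars, so that reads without strand may belong to either.

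In the 3 depots the 5 C/EBP genes made up different mixtures. Cebpa held 76.7% ± 3.23 (SD, n = 6) of their summed RPKM in iWAT, 67.6% ± 3.86 in eWAT and 68.0% ± 6.71 in BAT. Cebpb held 8.47% to 12.1% in iWAT, 7.68% to 18.6% in eWAT and 18.9% to 35.7% in BAT, and Cebpd 4.89% to 9.69%, 7.61% to 10.6% and 0.287% to 0.672%. The BAT shares of Cebpb were thus above, and those of Cebpd below, every adipocyte sample. The ratio of Cebpa to Cebpb, whose rows are shared, was 6.06 to 9.42 in iWAT, 3.28 to 8.82 in eWAT and 1.55 to 3.82 in BAT. The lowest eWAT ratio was that of sample 15, which was also the sample with the most macrophage marker RNA. The part of other cells in these shares was not tested, and the eWAT shares hold transcript rows of Cebpd, Cebpg and Ddit3.

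**Figure D3:**
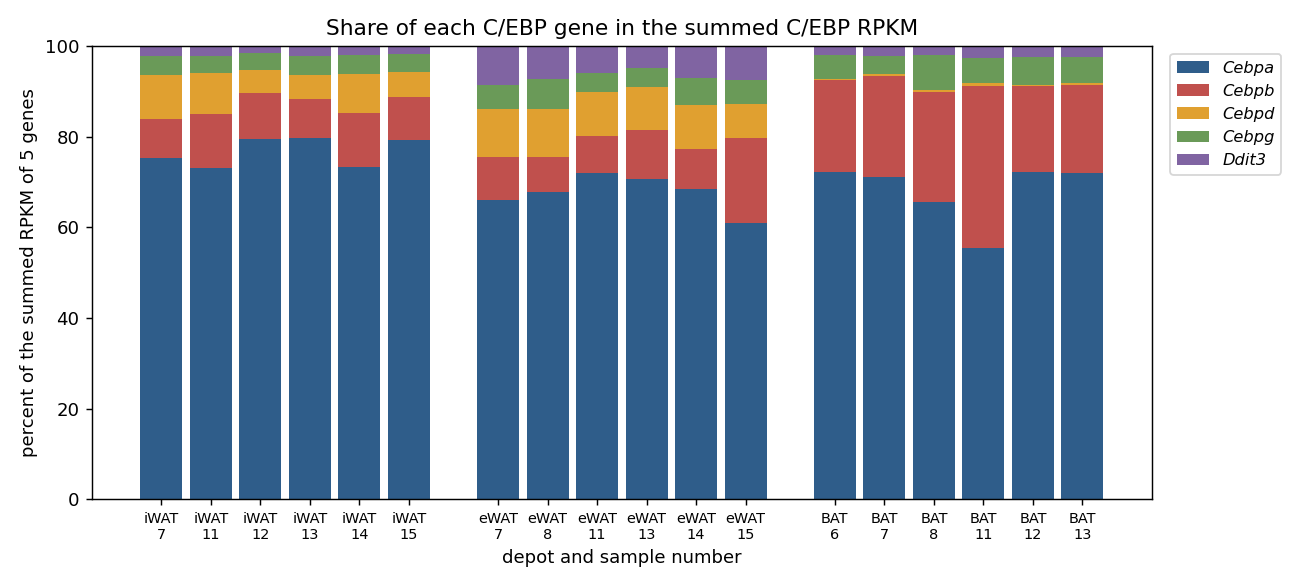
Share of each of 5 C/EBP genes in their summed RPKM (stacked to 100 percent) for every sample, by depot and sample number. Cebpb takes 35.7% in BAT sample 11 and at most 12.1% in iWAT, and the Cebpd share is under 1% in every BAT sample. The Ddit3 share in eWAT rests on a shorter row than in iWAT and BAT.

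Fixed lists of genes around the C/EBPs were described by counts beside the same background. Of 14 adipocyte genes with known C/EBP sites, 10 were higher and 3 lower in iWAT than in BAT (median log2 fold change 0.99). Retn (resistin), Lep (leptin) and Cfd (adipsin) had the largest changes, at 5.20, 5.16 and 4.49. In eWAT against BAT 8 of the 14 were higher and 4 lower (median 0.86). Of 12 genes of the ATF4 arm, the pathway that induces Ddit3, 9 were higher and 1 lower in iWAT than in BAT (median 2.12). The serine synthesis genes Psat1 and Phgdh were higher by 5.03 and 4.83 on the log2 scale, and the stress factor gene Atf3, which is also on the list of dissociation genes below, by 6.21. Ddit3 itself differed by 0.23 in the same comparison. Of 13 genes of the unfolded protein response, 9 were higher and 1 lower (median 0.79), led by Xbp1 at 2.04, Pdia4 at 1.71 and Sdf2l1 at 1.37. In eWAT against BAT the ATF4 arm had 8 higher and 1 lower of 12 and the unfolded protein response 11 higher and 1 lower of 13. Between eWAT and iWAT 5 genes with C/EBP sites passed, each lower in eWAT, 3 of the ATF4 arm passed, each higher, and of the unfolded protein response 2 were higher and 2 lower. None of the eWAT calls in these 3 lists turned sign with row length in the fit, although Xbp1, one of the lower 2 at -0.48, averaged 61.2 RPKM in eWAT and 55.4 in iWAT. In iWAT against BAT, eWAT against BAT and eWAT against iWAT, 67.6%, 70.3% and 25.6% of all genes were called. The shares were 92.9%, 85.7% and 35.7% of genes with C/EBP sites and 83.3%, 75% and 25% of the ATF4 arm. For the unfolded protein response they were 76.9%, 92.3% and 30.8%.

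Klf4 encodes a KLF that acts with the early factor KROX20 on the Cebpb gene, and it was the most strongly expressed of the 3 KLF genes. It lies on chromosome 4 (chr4:55540009-55545347, minus strand), and the promoter printed above has 5 GC boxes. In BAT the lowest, median and highest RPKM were 5.17, 8.36 and 27.9. In iWAT they were 74.8, 100.3 and 119, and in eWAT 50.1, 67.8 and 99.5. No adipocyte sample overlapped with BAT, and iWAT and eWAT overlapped. In iWAT Klf4 was 7.30-fold higher than in BAT (log2 fold change 2.87, SE 0.35, edgeR adjusted p = 5.90e-06), and for eWAT against BAT the log2 fold change was 2.32 (adjusted p = 3.89e-06). The difference between eWAT and iWAT of -0.50 did not pass (adjusted p = 0.245).

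Klf4 also had the widest spread of the 9 tested genes in BAT (5.40-fold from lowest to highest RPKM), and its 2 highest samples were also those with the highest sums of immediate-early and of endothelial genes. BAT samples 11 and 7 had the highest RPKM of Klf4 (27.9 and 14.5), Cebpd (1.67 and 1.22) and Cebpb (88.7 and 68.7). The same 2 samples had the highest summed RPKM of 19 immediate-early and dissociation genes, 282 and 306, where the other 4 BAT samples had 63.4 to 158. Many of these genes are known to respond to tissue handling. Sample 8 was next in that sum, at 158, but had a Klf4 RPKM of 5.36, the second lowest in BAT. Endothelial markers summed to 129 and 108 in samples 11 and 7 and to 55.5 to 106 in the other 4, so both lists ran with Klf4 and Cebpd in these 2 samples, and the part of either was not tested. In iWAT that sum was 3991 to 5511 and in eWAT 3186 to 4102. Of the 19 genes, 18 were higher in iWAT than in BAT (median log2 fold change 5.71) and 19 in eWAT than in BAT (median 4.93), with Fosb at 9.58 and 8.79, Socs3 at 8.45 and 7.16, and Fos at 8.38 and 7.98. Of all genes tested, 34.0% and 35.6% were higher in these 2 comparisons. Between eWAT and iWAT 6 of the 19 passed (31.6%, against 25.6% of all genes), each lower in eWAT. Klf4 and Cebpd therefore differed between preparations in the same direction as this list, and Cebpb in the opposite direction. That direction was not particular to Klf4 and Cebpd, since Zfp423, Ebf1 and Klf15 were also higher than in BAT in both adipocyte preparations. The part of the preparation in these genes was not tested, since preparation and depot cannot be told apart. Within depots, over 18 samples, Klf4 followed Klf6, Zbtb2 and Atf3 most closely of 10333 genes (Pearson r of the deviations from depot means 0.858, 0.848 and 0.839), and Cebpd followed Pim3 (0.843). Without eWAT sample 15, Pim3 fell to rank 20 for Cebpd (r = 0.805). Klf6, Zbtb2 and Atf3 then had ranks 2, 9 and 13 for Klf4 (r = 0.865, 0.848 and 0.839). These correlations are descriptions over samples that share preparation and depth.

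**Figure D4:**
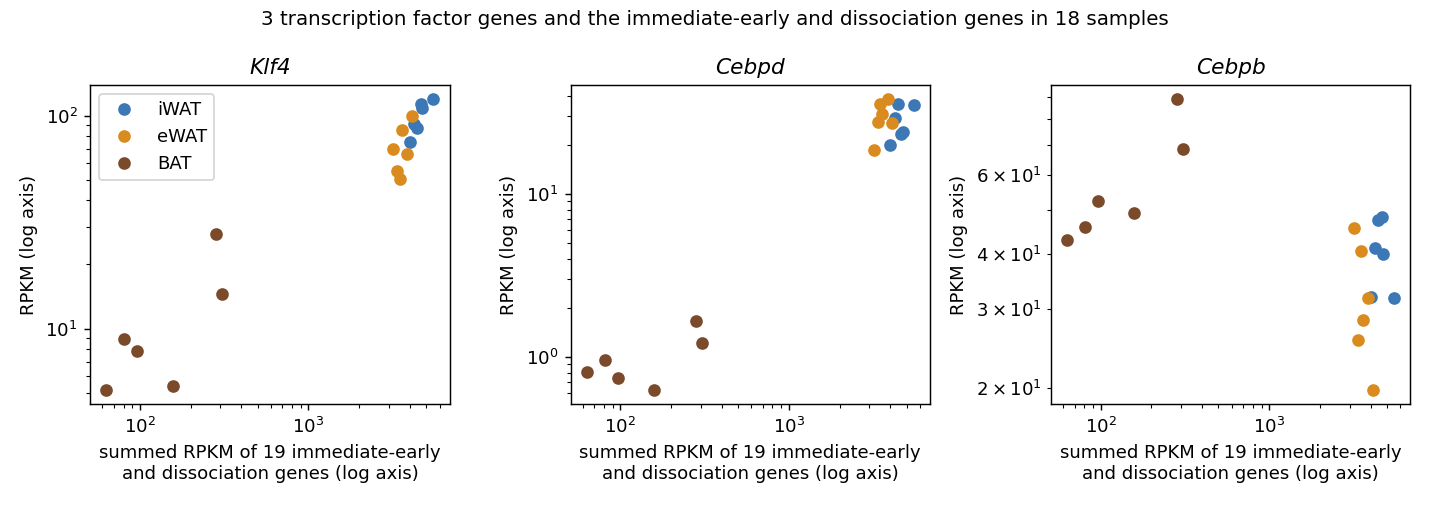
RPKM of Klf4, Cebpd and Cebpb (log axes) against the summed RPKM of 19 immediate-early and dissociation genes in the 18 samples. BAT lies at sums of 63.4 to 306 and the adipocyte samples at 3186 to 5511, with Klf4 and Cebpd higher and most Cebpb values lower in the adipocytes.

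Klf15 encodes the KLF of the late stage, which glucocorticoids induce and which serves Glut4 and gluconeogenic genes elsewhere. It lies on chromosome 6 (chr6:90412570-90425232, plus strand). The lowest, median and highest RPKM were 3.72, 5.20 and 6.47 in BAT, against 11.5, 15.1 and 18.5 in iWAT and 7.78, 14.4 and 17.4 in eWAT. Every adipocyte sample was above every BAT sample. Klf15 was higher in iWAT than in BAT by 1.28 on the log2 scale (SE 0.14, edgeR adjusted p = 2.49e-06) and in eWAT than in BAT by 0.97 (adjusted p = 6.32e-05). The eWAT and iWAT samples overlapped, and the difference of -0.26 did not pass (adjusted p = 0.273). The lowest eWAT value was that of sample 15. The Klf4 to Klf15 ratio of RPKM was 4.67 to 8.37 in iWAT, 3.14 to 8.98 in eWAT and 0.978 to 6.41 in BAT.

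Klf5, which acts between the early C/EBPs and PPARγ, was close to the limit of detection. It had 0 to 19 reads per sample in iWAT (39 in all), 1 to 9 in eWAT (29 in all) and 0 to 6 in BAT (24 in all). Its RPKM averaged 0.0222 in BAT against 0.0447 in iWAT and 0.0933 in eWAT, where 3 reads, the upper limit for a count of 0, stand for 0.0153 to 0.0652. The counts allow no comparison between depots. Each of the 6 transcript rows of Klf5 in eWAT had at most 9 reads in a sample.

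Of 14 further KLF genes, 12 could be tested between iWAT and BAT, and 6 were higher and 1 lower in iWAT (median log2 fold change 0.54), which is 58.3% called against 67.6% of all rows. Klf6, the gene that varied most like Klf4 within depots, was 12.2-fold higher (125.8 ± 31.3 against 8.74 ± 3.91 RPKM, SD, n = 6). Klf14, a maternally expressed gene, had a mean RPKM of 1.97 in iWAT and 5 reads over all 6 BAT samples. Klf9, which glucocorticoids induce, was 1.55-fold higher. In eWAT against BAT 6 were higher and 2 lower (66.7% called, against 70.3% of all genes). Between eWAT and iWAT 3 were higher and 3 lower (50% called, against 25.6%). Klf3 is among the lower in both (-0.76 and -0.62) but turned with row length in the fit (0.81 and 0.93), so no direction is drawn for it. Of 11 glucocorticoid-induced genes, the class to which Klf15 and Cebpd also belong, 10 were higher and 1 lower in iWAT than in BAT (median 1.93). Mt2, a metallothionein gene, was 14.9-fold higher and the phosphatase gene Dusp1 5.17-fold higher, and Dusp1 is also on the list of dissociation genes. Pdk4, which spares glucose from oxidation, was lower, at 0.112 of the BAT level. The eWAT samples had 8 of the 11 genes higher and 1 lower than BAT, and the 4 that passed against iWAT were lower. The called shares of this list were 100%, 81.8% and 36.4% in iWAT against BAT, eWAT against BAT and eWAT against iWAT. Those of all genes were 67.6%, 70.3% and 25.6%.

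Ebf1 and Zfp423 encode factors that mark the commitment of adipocyte precursors. Ebf1 spans chr11:44430819-44821593 (plus strand). Its RPKM was 7.67, 9.55 and 11.5 in iWAT (lowest, median and highest) and 2.76, 3.21 and 3.64 in BAT. All iWAT samples were above all BAT samples, by 1.33 on the log2 scale (SE 0.10, edgeR adjusted p = 5.58e-08). In eWAT the values were 12.4, 24.1 and 30.5, above both other depots, but they rest on a 5981-base transcript where the merged row has 18718 bases. On counts Ebf1 was higher in eWAT than in BAT by 0.90 (adjusted p = 6.55e-05), and by 2.15 with row length in the fit. With the transcript of highest RPKM, a short row, the value was 0.06 (adjusted p = 0.754). Between eWAT and iWAT the sign turned with the same choice, from -0.38 on counts (adjusted p = 0.0884) to 0.85 with row length, so no order is drawn. Leaving out eWAT sample 7 gave -0.48 on counts (adjusted p = 0.0325).

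Zfp423, on chromosome 8 (chr8:90185707-90483494, minus strand), is the gene whose product in white adipocytes holds back the thermogenic program. Its RPKM was 1.95, 2.12 and 2.56 in BAT, against 7.37, 9.65 and 12.6 in iWAT and 5.54, 9.01 and 9.87 in eWAT. The adipocyte samples did not overlap with BAT. Zfp423 was higher in iWAT than in BAT by 1.91 on the log2 scale (SE 0.11, edgeR adjusted p = 4.14e-09) and in eWAT than in BAT by 1.60 (adjusted p = 2.31e-09). With a 656-base row of highest RPKM in eWAT the latter was -0.62. Between eWAT and iWAT the log2 fold change was -0.25 (adjusted p = 0.144).

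Markers of macrophages and of stromal progenitors ran opposite to Ebf1 and Zfp423 over the 6 eWAT samples. Pearson r of the deviations from depot means was -0.97 and -0.91 with macrophage markers and -0.76 and -0.83 with stromal progenitor markers. In iWAT the values with macrophage markers were 0.43 and -0.24, and with stromal progenitor markers 0.32 and -0.30. In BAT they were 0.05 and -0.24, and 0.41 and 0.24. The eWAT pattern was not particular to Ebf1 and Zfp423. Klf15 had -0.96 with macrophage and -0.89 with stromal progenitor markers there, and Cebpg had -0.86 and -0.96. Cebpb ran with both lists in eWAT (0.72 and 0.80). Sample 15 had the lowest eWAT value of Ebf1 (12.4), Zfp423 (5.54) and Klf15 (7.78). Low values there were not particular to these genes, since Cebpa (149), Cebpd (18.6), Cebpg (13.2) and Ddit3 (18.1) were also lowest in it. Cebpb was at its eWAT highest (45.5), and Klf4 (69.8) lay within the range of the others. The 5 adipocyte markers summed to 2861 in sample 15 and to 4344 to 6332 in the other eWAT samples. The same sample had the highest sum of macrophage markers (1952) and of stromal progenitor markers (220). Their part in the values of that sample was not tested. Without eWAT samples 14 and 15, the pair with epididymis markers, 8 of the 9 genes still passed the threshold between eWAT and BAT. Between eWAT and iWAT 2 passed in place of 4. Of the 18128 genes tested, 67.6% and 19.3% passed in these comparisons. Within depots, Ebf1 varied most like Acsm3 (r = 0.954 over 18 samples, 0.870 without eWAT sample 15) and Zfp423 most like Extl3 (r = 0.944 and 0.892).

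Of 5 relatives of these factors that could be tested, 1 was higher and 2 were lower in iWAT than in BAT, and 1 was higher and 4 were lower in eWAT than in BAT. In iWAT against BAT the called shares of these relatives (60.0%), of the other adipogenic regulators (54.5%) and of the restraining regulators (55.6%) were below the 67.6% of all rows. In eWAT against BAT the shares of the same lists were 100%, 72.7% and 90%, against 70.3% of all genes. In eWAT against iWAT they were 60%, 27.3% and 20%, against 25.6%. Prdm16, the thermogenic partner of C/EBPβ, averaged 3.10 ± 0.398 RPKM in BAT against 2.19 ± 0.601 in iWAT and 0.501 ± 0.210 in eWAT (SD, n = 6 each). Its log2 fold change against BAT was -0.78 in iWAT (edgeR adjusted p = 0.000560) and -3.09 in eWAT (adjusted p = 6.00e-10). Ebf2, which marks brown precursors, had log2 fold changes of -1.23 and -1.39 in the same comparisons, and Ebf3 had -1.21 in eWAT against BAT. For Ebf3 this was -0.77 with row length in the fit, and its RPKM averaged 4.83 ± 1.83 in eWAT and 4.88 ± 1.21 in BAT (SD, n = 6 each). Of 11 other adipogenic regulators 5 were higher and 1 lower in iWAT than in BAT (median 0.23), with Egr2 (the KROX20 gene) at 6.77, Rxra at 1.48 and the carbohydrate-response factor gene Mlxipl at -2.43. Egr2 is also on the list of dissociation genes. Of 9 regulators that restrain adipogenesis and could be tested, 3 were higher and 2 lower (median 0.40), with Gata2 at -1.64 and Hes1 at 0.95.

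**Figure D5:**
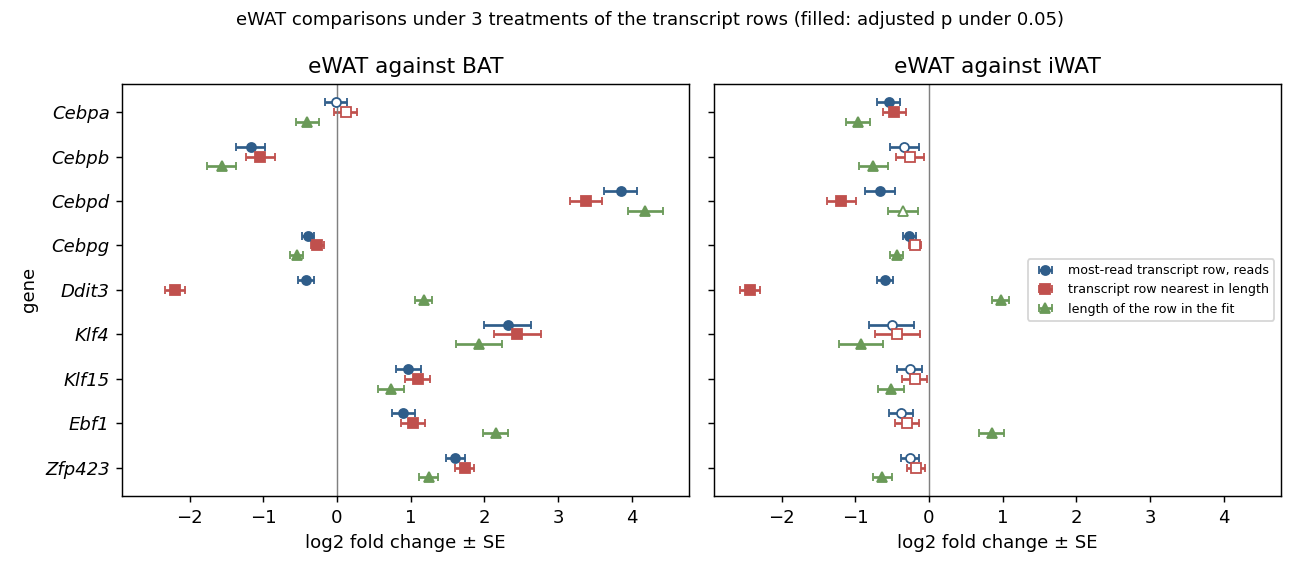
Log2 fold change with its standard error of the 9 genes for eWAT against BAT and against iWAT, with the most-read transcript row, with the transcript row nearest in length to the merged row, and with row length in the fit (filled points, adjusted p under 0.05). Ddit3, Cebpa against BAT and Ebf1 against iWAT lie on both sides of 0, whereas Cebpd, Klf4, Klf15 and Zfp423 stay above 0 and Cebpb below 0 against BAT.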

How the data were processed

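RNA-seq libraries of 6 iWAT adipocyte, 6 eWAT adipocyte and 6 BAT samples had been made with the NEBNext Ultra RNA kit. Reads had been processed with the Genomatix Genome Analyzer on mm9, and the submitters' processing notes also name cutadapt (version 1.16) and HISAT2 (version 2.1.0). The annotation and the counting rule, including the use of strand, are not given in the sources used here. For every row the authors deposited raw read counts and an RPKM, which equals those reads scaled to the length of the row and to a total per sample. These totals (22929576 to 34512470) served as library sizes. Reads carry no molecular identifiers, so the 3-read limit covers counting error only.

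The depot in the labels gave the groups. Each symbol was represented by its merged row, or in eWAT by its most-read transcript row. Rows that had 10 or more reads in 6 or more samples were tested in R (version 4.3.3) with edgeR (version 4.0.16, glmQLFit and glmQLFTest, TMM, no block), using 12 samples for iWAT against BAT and 18 for the eWAT comparisons, and a Benjamini-Hochberg adjusted p under 0.05. Standard errors were derived from the F statistic. On simulated counts the code called 85 to 92 of 100 rows changed 4-fold and 26 of 100 changed 1.5-fold, and 4 to 7 of 18178 to 19533 unchanged rows. The alternatives were limma (version 3.58.1) on log2(RPKM + 0.1) or log2(RPKM + 1), DESeq2 (version 1.42.0), other scalings, filters, rows and thresholds, a replicate block, and leaving out samples. The fit with row length computed TMM on reads per base, so its scaling also differs for genes whose rows have equal length.

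The genes and lists were chosen with earlier results of these data known. From each list and comparison, up to 3 genes past the threshold were named, those with the largest absolute change that averaged 1 RPKM or more in the higher depot. The genes most alike were those with the highest Pearson correlation of log2(RPKM + 0.1) deviations from depot means. Sequences are from RefSeq (GRCm38.p6), and overlaps are from the mm9 annotation. Python (version 3.11.15) was used for levels, motifs and figures.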

Additional observations from a re-analysis of the deposited data

Results flagged for a closer look

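Of 68 measures examined (the RPKM of each of the 10 genes and the summed RPKM of marker lists, per depot), 7 had a sample far from the others of its depot by Dixon's criterion, where chance gives about 1 in 20, or 3.4. For the genes themselves this applied to Zfp423 in eWAT, which had an RPKM of 5.54 in sample 15 and 8.31 to 9.87 in the other 5 samples. The same sample had the summed macrophage markers of 1952 against 136 to 463. The other 5 were marker sums. Stromal progenitor markers summed to 173 in iWAT sample 7 (95.9 to 117 in the others), endothelial markers to 320 in iWAT sample 14 (56.9 to 143), B cell markers to 1.03 (0.112 to 0.399) and T cell markers to 0.898 (0.0814 to 0.253) in iWAT sample 11, and skeletal muscle markers to 1340 in BAT sample 12 (0.550 to 119).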

How the results depend on the processing

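Over 663 refits of single genes, 581 kept direction and side of the threshold, 29 lost the threshold, 18 gained it and 35 turned sign. In iWAT against BAT the 7 genes past the threshold kept their direction in every alternative run, and the number past it was 7 to 8 when single samples were left out. Demanding a 2-fold change left Cebpd, Klf4, Zfp423, Ebf1 and Klf15 and 32.2% of all rows (6345) there. It left 4 of the 9 genes and 38.9% of all genes (7151) in eWAT against BAT, and 0 and 10.7% (1967) in eWAT against iWAT. In the rows shared by all tables, which hold Cebpa and Cebpb alone of these genes, 2 of 2 and 62.6% of rows (3590) passed in iWAT against BAT. The values were 1 of 2 and 67.8% (3888) in eWAT against BAT, and 1 of 2 and 12.9% (737) in eWAT against iWAT. The eWAT against iWAT counts depended most on the treatment of the rows and the scaling that went with it. With row length in the fit they were 8 of 9 and 52.4% of all genes (9635). That fit also computed TMM on reads per base, which shifts Cebpa and Cebpb although their rows are the same in all tables. Row length and scaling are thus not separated in these counts. With limma, 52.3% and 51.5% of all genes (9620 and 9473) passed at pseudocounts of 0.1 and 1. The eWAT transcript of highest RPKM gave 57.6% (10519), by a rule that picks short rows and so fewer reads by its construction. Without eWAT samples 14 and 15, 2 of the 9 genes passed, where 19.3% of all genes tested did. Leaving out single samples gave 3 to 5 of 9 genes and 21.2% to 28.2% of all genes (3877 to 5153) in eWAT against iWAT. It gave 8 of 9 and 67.1% to 70.1% (12083 to 12777) in eWAT against BAT. In iWAT against BAT 64.3% to 68.8% of all genes (12307 to 13291) passed.

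The signs that turned were mostly of differences near 0. Cebpa in eWAT against BAT was 0.0059 with DESeq2 and with RLE size factors, 0.33 without TMM, 0.041 without a filter, 0.31 with limma at either pseudocount, 0.10 on shared rows, 0.12 with the transcript nearest in length and 0.11 without eWAT samples 14 and 15, and leaving out single samples gave -0.10 to 0.067. Cebpg in iWAT against BAT was 0.19 without TMM and 0.19 and 0.18 with limma at pseudocounts of 0.1 and 1, and in eWAT against BAT 0.18 and 0.17 with limma. Ddit3 in eWAT was 1.88 and 1.72 against BAT and 1.38 and 1.29 against iWAT with limma at the same pseudocounts, and 1.18 and 0.97 with row length in the fit. Ebf1 in eWAT against iWAT was 1.23 and 1.158 with limma and 0.85 with row length, and Cebpd 0.092 and 0.089 with limma. With the eWAT transcript of highest RPKM, Zfp423 against BAT was -0.62 and Cebpb against iWAT 0.082. The merged and transcript rows differ in length for these genes except Cebpa and Cebpb, and the cause of the other turns was not tested. With row length in the fit, an alternative for the gene lists chosen after seeing the data, the list medians turned for the other adipogenic regulators in eWAT against BAT (from -0.08 to 0.21) and the other KLF genes in eWAT against iWAT (from -0.008 to 0.022). Rescaling RPKM by TMM moved 3 BAT means by more than 1 SD, Cebpg to 16.2, Ebf1 to 3.71 and Zfp423 to 2.52, and moved no other mean that far.

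With the number in the sample titles as a replicate block, 7, 8 and 2 of the 9 genes passed in iWAT against BAT, eWAT against BAT and eWAT against iWAT. Of all genes tested 59.3%, 62% and 17.1% did (11711, 11398 and 3151). The block turned the sign of Cebpa in eWAT against BAT (0.11) and of Cebpg in iWAT against BAT (0.035). The numbers did not pair the samples, since the mean correlation of same-numbered samples was 0.05, -0.04 and, between iWAT and eWAT, -0.13. Depth limits Klf5, whose 0 to 19 reads per sample allow no test.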
